A study of Mus musculus with 24 samples.

Results

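The genes described here are 10 angiogenic factors and receptors, chosen by name from the 55401 genes of the read count table: the ligands Vegfa, Vegfc, Pgf, Angpt1 and Angpt2, the receptors Flt1, Kdr and Tek, and the co-receptors Nrp1 and Eng. All 10 were found in the table, and all 10 passed the filter on low counts in every fit. The libraries are bulk RNA-seq of the maternal-fetal interface (MFI), the tissue that holds the maternal decidua and the fetal placenta, and there are 24 of them. WT mice were C57BL/6, and the homozygous C1qtnf6-KO mice carried a CRISPR-made deletion of C1qtnf6, which encodes the secreted protein CTRP6, in a C57BL/6JCya line. Each genotype was sampled on 4 gestation days, first at gd10.5, then at gd14.5 and gd16.5, and last at gd19.5, with 3 libraries in each of the 8 groups. The labels name no other treatment. The labels do not say whether the 3 libraries of a group came from separate dams, and in each group the dam and the conceptus share the genotype. The p-values therefore measure the spread between these libraries.

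Growth of blood vessels at this interface is steered by the secreted factors of the VEGF and angiopoietin families. VEGF-A and placental growth factor (PlGF, the product of Pgf) bind VEGFR1, encoded by Flt1, and VEGF-A also signals through VEGFR2, encoded by Kdr, with neuropilin-1 as co-receptor. Trophoblast makes a soluble form of FLT1 that binds VEGF-A and PlGF away from the cell surface. Angiopoietin-1 activates the endothelial receptor TIE2, encoded by Tek, and angiopoietin-2 competes with it in a manner that depends on context, while endoglin, encoded by Eng, is a co-receptor for ligands of the TGF-beta family on endothelium. Gene counts add up all isoforms, so soluble and membrane-bound Flt1 were not told apart here.

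Both VEGF receptor genes lie on chromosome 5, Flt1 (ENSMUSG00000029648) at 147561604-147726011 on the minus strand and Kdr (ENSMUSG00000062960) at 75932827-75978458 on the minus strand, in GRCm38 coordinates. Tek (ENSMUSG00000006386) lies on chromosome 4 at 94739289-94874976 and Eng (ENSMUSG00000026814) on chromosome 2 at 32646595-32682669, both on the plus strand. The bases just before the annotated starts of these 4 receptor genes are shown because the results turn on how differently they moved. They were copied from RefSeq (GRCm38.p6) and are written 5′ to 3′ on the strand of the gene. Capitals mark GGAAG or its reverse complement CTTCC, a core shared by binding sites of ETS factors, a family with well-known roles in endothelium.
Flt1, chr5:147726012-147726261, minus strand: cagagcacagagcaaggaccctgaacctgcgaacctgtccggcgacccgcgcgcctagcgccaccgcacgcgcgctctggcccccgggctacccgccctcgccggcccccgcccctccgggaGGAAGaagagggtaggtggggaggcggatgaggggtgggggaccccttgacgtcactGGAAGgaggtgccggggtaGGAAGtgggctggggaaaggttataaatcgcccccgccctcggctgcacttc
Kdr, chr5:75978459-75978705, minus strand: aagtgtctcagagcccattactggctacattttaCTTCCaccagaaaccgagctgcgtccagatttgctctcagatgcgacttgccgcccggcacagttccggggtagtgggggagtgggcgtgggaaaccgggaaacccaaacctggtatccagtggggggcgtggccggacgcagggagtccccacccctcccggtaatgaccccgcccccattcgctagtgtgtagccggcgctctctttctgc
Tek, chr4:94739039-94739288, plus strand: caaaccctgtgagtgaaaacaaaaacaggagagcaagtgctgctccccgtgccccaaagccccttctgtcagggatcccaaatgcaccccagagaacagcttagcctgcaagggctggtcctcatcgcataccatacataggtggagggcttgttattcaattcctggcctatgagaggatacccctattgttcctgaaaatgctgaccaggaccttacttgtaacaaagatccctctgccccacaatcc
Eng, chr2:32646345-32646594, plus strand: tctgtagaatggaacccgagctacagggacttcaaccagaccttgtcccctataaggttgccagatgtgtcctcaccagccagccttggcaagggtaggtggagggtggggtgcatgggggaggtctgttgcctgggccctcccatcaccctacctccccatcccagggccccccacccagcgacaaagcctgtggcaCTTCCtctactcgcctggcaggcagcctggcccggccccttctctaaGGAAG
The Flt1 window holds 3 matches, Kdr 1, Eng 2 and Tek 0. The window of Nrp1, not shown, also holds 3. Whether matches relate to how a gene moved was not tested. Of the 10 genes, 8 are in the promoter table and 7 have bases before the start that lie in no exon, and 5 of those 7 hold the motif, which 64.1% of the 250-base windows before 32851 RefSeq starts also hold. ACGTG, the core of the hypoxia response element, or its reverse complement CACGT was in 0 of the 7, against 16.6% of those windows. A match is a run of letters in this window and does not show that a factor binds there.

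Library totals lay between 20975717 and 37383108 counts, so the limit of 3 counts corresponds to 0.0773 to 0.149 CPM (counts relative to the library total, scaled with TMM factors over all 24 libraries). C1qtnf6 stood at 64.7 to 168 CPM in the WT libraries and at 0.0341 to 2.05 CPM in the KO libraries. KO gd10.5 replicate 2 stood apart from the other gd10.5 libraries. Its level of Tpbpa, a spongiotrophoblast marker, was 10148 CPM, against 645 to 1770.0 CPM in the other gd10.5 libraries and 12539.8 to 31224 CPM at later stages. Values without it are given beside the Flt1, Angpt2, Eng, Nrp1 and ratio results that turn on it.

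The 10 genes spanned more than 3 orders of magnitude in counts, from 15 counts for Vegfc in 1 KO gd14.5 library to 90858 counts for Flt1 in WT gd14.5. Levels of different genes are compared in CPM per kb of exon length. At gd10.5 in WT, Angpt2 was first at 172 ± 33.6 CPM per kb (SD, n = 3), followed by Vegfa at 27.5 ± 1.30, Eng at 25.6 ± 6.22 and Flt1 at 15.6 ± 3.18. From gd14.5 onward Flt1 was first in both genotypes, at 162 ± 28.4 CPM per kb in WT gd14.5, 202 ± 39.8 in WT gd16.5 and 107 ± 11.2 in WT gd19.5. Its libraries did not overlap those of the next gene in any of these groups, while the middle of the order was close, with Eng and Angpt2 overlapping in WT gd16.5 and WT gd19.5. Nrp1 was eighth in all 8 groups, and Vegfc and Angpt1 held the last places, each under 1.4 CPM per kb in every group mean.

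**Figure D1:**
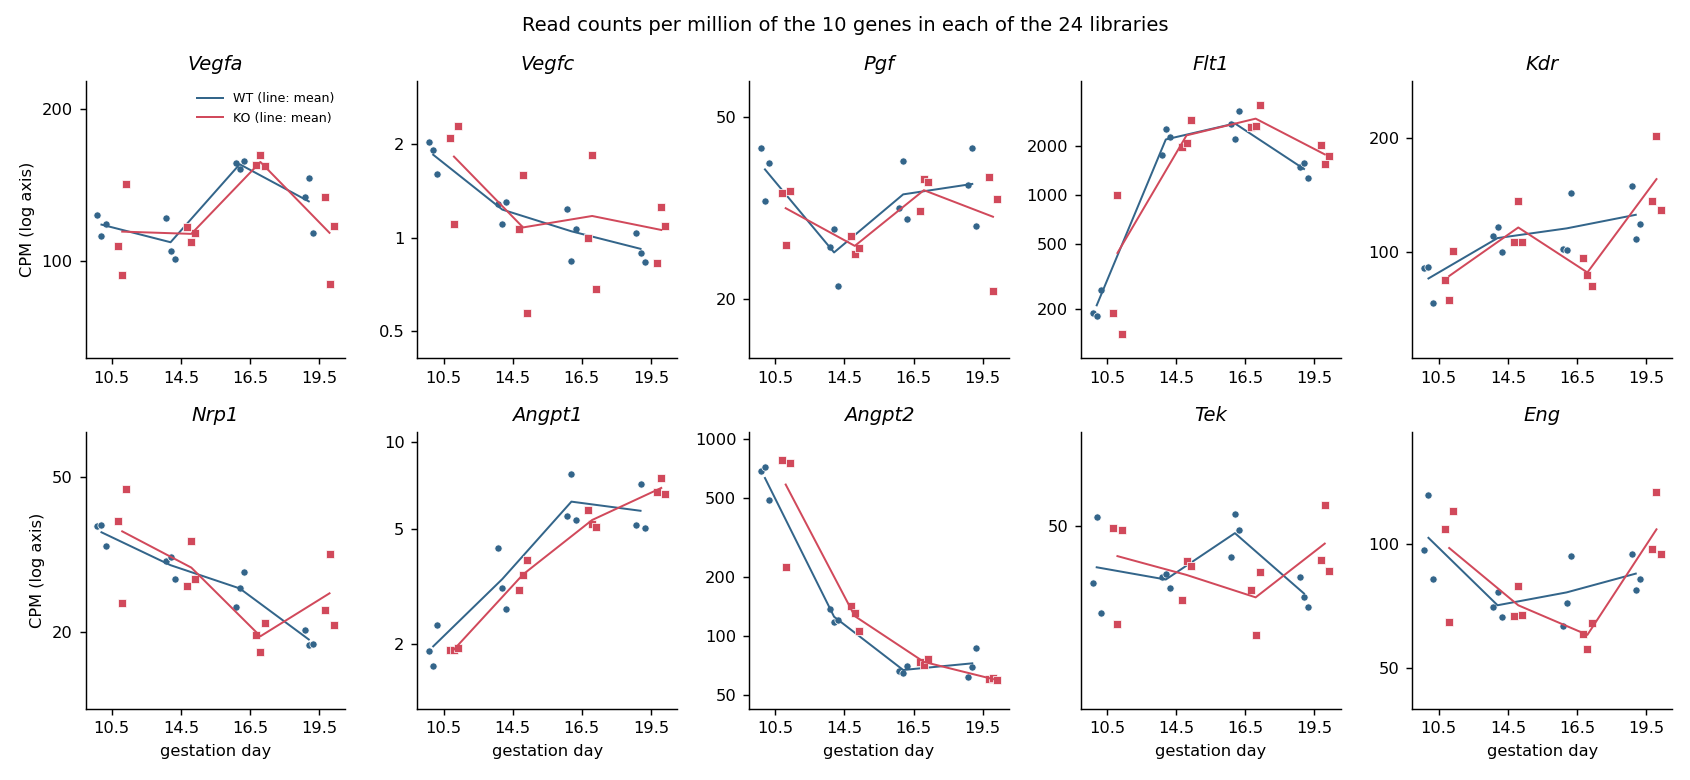
CPM of each gene (log axis, own scale in each panel) against gestation day, with 3 WT (blue circles) and 3 KO (red squares) libraries per stage and lines through the means; days are evenly spaced. Flt1 climbs from 140.4 to 260.4 CPM in 5 of the 6 gd10.5 libraries to at least 1269 CPM in every later library, Angpt2 falls from at least 493 CPM in the same 5 libraries to at most 142 CPM, and KO gd10.5 replicate 2 lies between, at 994 and 223 CPM.

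Among the ligands of the VEGF receptors, Vegfa, which encodes the main mitogen of endothelial cells, spanned 1.44-fold in its group means. Its WT gd10.5 libraries stood at 123, 112 and 119 CPM and the WT gd14.5 libraries at 121, 105 and 101 CPM. WT gd16.5 held 156, 152 and 158 CPM, and WT gd19.5 held 134, 146 and 114 CPM. The gd16.5 libraries were above all other WT libraries. In the comparison of gd16.5 with gd14.5 Vegfa rose in WT (log2 fold change 0.52 ± 0.10 SE, adjusted p = 0.00222, edgeR quasi-likelihood test), and 12.5% of 18523 tested genes rose in that comparison. The KO libraries gave 0.48 ± 0.16 for the same step (adjusted p = 0.058), with 155, 162 and 154 CPM at gd16.5 against 109 to 117 CPM at gd14.5. The KO groups did not overlap either, but the value did not pass the test.

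Pgf encodes PlGF, a ligand that binds FLT1 and not KDR. It was at 42.8, 32.8 and 39.7 CPM in WT gd10.5 and at 26.0, 28.5 and 21.4 CPM in WT gd14.5. The 2 WT groups did not overlap, and Pgf fell between them (-0.59 ± 0.16, adjusted p = 0.00673). The KO libraries gave -0.28 ± 0.18 (adjusted p = 0.23) for that step, from 26.2 to 34.5 CPM at gd10.5 to 25.1 to 27.5 CPM at gd14.5. Later Pgf libraries ranged from 20.8 to 42.8 CPM with no called step.

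Vegfc, the ligand of the lymphatic receptor VEGFR3, stayed low, between 0.574 and 2.28 CPM in all 24 libraries. In WT it fell from 2.03, 1.92 and 1.61 CPM at gd10.5 to 1.29, 1.11 and 1.30 CPM at gd14.5 (-0.59 ± 0.19, adjusted p = 0.0191). KO gave -0.74 ± 0.42 (adjusted p = 0.174), with groups that overlapped. The WT call was lost when WT gd10.5 replicate 1 or WT gd14.5 replicate 2 was left out (Vegfc -0.53 with adjusted p = 0.058, and -0.50 with adjusted p = 0.083).

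Flt1 had the steepest course among the receptors. WT gd10.5 libraries held 189.7, 183 and 260.4 CPM, and WT gd14.5 libraries held 1761, 2511 and 2272 CPM. All WT gd14.5 libraries were above all WT gd10.5 libraries, and the mean rose from 211 ± 43.0 to 2182 ± 383 CPM (SD, n = 3; log2 fold change 3.38 ± 0.19 SE, adjusted p = 3.58e-08). In this comparison 7 of the 10 genes were called, 2 higher and 5 lower, against 27.7% of all tested genes higher and 28.3% lower. In KO the gd10.5 libraries held 188, 994 and 140.4 CPM and the gd14.5 libraries 1973, 2087 and 2869.7 CPM. Flt1 rose there too (2.39 ± 0.60, adjusted p = 0.00781), and without KO gd10.5 replicate 2 the Flt1 value was 3.81 (adjusted p = 5.01e-07). The KO step called 3 of the 10 genes, 2 higher and 1 lower, with 22.1% of 18467 tested genes higher and 24.1% lower. Without that library 5 of the 10 were called, but the share of all genes called without it was not counted.

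From gd14.5 to gd16.5 Flt1 did not change detectably, with 2729, 2195 and 3271 CPM in WT gd16.5 (0.33 ± 0.18, adjusted p = 0.206) and 2585, 2639 and 3546 CPM in KO gd16.5 (0.34 ± 0.57, adjusted p = 0.73). The groups of neighbouring stages overlapped in both genotypes. By gd19.5 the WT libraries were at 1489, 1559 and 1269 CPM, below all WT gd16.5 libraries, and Flt1 fell (-0.92 ± 0.18, adjusted p = 0.00865). Without WT gd19.5 replicate 3 the Flt1 value was -0.84 (adjusted p = 0.0514). This step lowered 4.81% of all tested genes in WT and raised 3.16%, and 2 of the 10 genes, Flt1 and Nrp1, were among those that fell. The KO libraries at gd19.5 held 2025, 1553 and 1725 CPM, also below their gd16.5 group, with a difference that did not pass the test (-0.73 ± 0.57, adjusted p = 0.537). The KO fit includes KO gd10.5 replicate 2.

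Kdr encodes VEGFR2, the receptor that carries most VEGF-A signals in endothelium. It was at 90.6, 91.1 and 73.1 CPM in WT gd10.5 and at 84.0, 74.5 and 100.2 CPM in KO gd10.5. At gd14.5 it was at 110.0, 116 and 99.95 CPM in WT and at 106, 136 and 106 CPM in KO, above all gd10.5 libraries of WT, with values that missed the threshold (0.36 ± 0.15, adjusted p = 0.0526 in WT, and 0.42 ± 0.18, adjusted p = 0.0694 in KO). Over the same interval the Flt1 difference was 3.38 in WT and 2.39 in KO. In KO the step from gd16.5 to gd19.5 took Kdr from 96.4, 86.8 and 81.2 CPM to 136, 202 and 129 CPM (0.82 ± 0.18, adjusted p = 0.0519). These groups did not overlap, and in that step 0 of the 10 genes were called by edgeR, 4 had an unadjusted p under 0.05, and edgeR called 0.574% of all genes higher and 0.666% lower. DESeq2 called 2 of the 10, Kdr and Eng, and 6.47% of all genes.

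Nrp1, the co-receptor for VEGF-A and semaphorins, fell at 2 of the 3 steps in WT. WT gd10.5 libraries stood at 37.3, 37.6 and 33.2 CPM and WT gd14.5 libraries at 30.4, 31.2 and 27.4 CPM. WT gd16.5 held 23.3, 26.0 and 28.5 CPM, and WT gd19.5 held 20.3, 18.6 and 18.7 CPM. Only gd14.5 and gd16.5 overlapped. The first step (-0.27 ± 0.09, adjusted p = 0.0188) and the last (-0.43 ± 0.09, adjusted p = 0.0147) passed the test. In KO the corresponding values were -0.31 ± 0.22 (adjusted p = 0.275) and 0.36 ± 0.23 (adjusted p = 0.426). Without KO gd10.5 replicate 2, at 23.8 CPM against 38.4 and 46.5 CPM in the other KO gd10.5 libraries, Nrp1 fell in the first KO step too (-0.53, adjusted p = 0.0194). The KO gd19.5 libraries were at 22.9, 31.7 and 20.9 CPM, and the first and second of them lay above every KO gd16.5 library. Both WT calls for Nrp1 were close to the threshold. The first was lost without WT gd10.5 replicate 1 or 2 or WT gd14.5 replicate 3 (Nrp1 values from -0.25 to -0.22, adjusted p up to 0.0845), and the last without WT gd16.5 replicate 3 or WT gd19.5 replicate 2 or 3 (-0.41 to -0.36, adjusted p up to 0.0675).

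**Figure D2:**
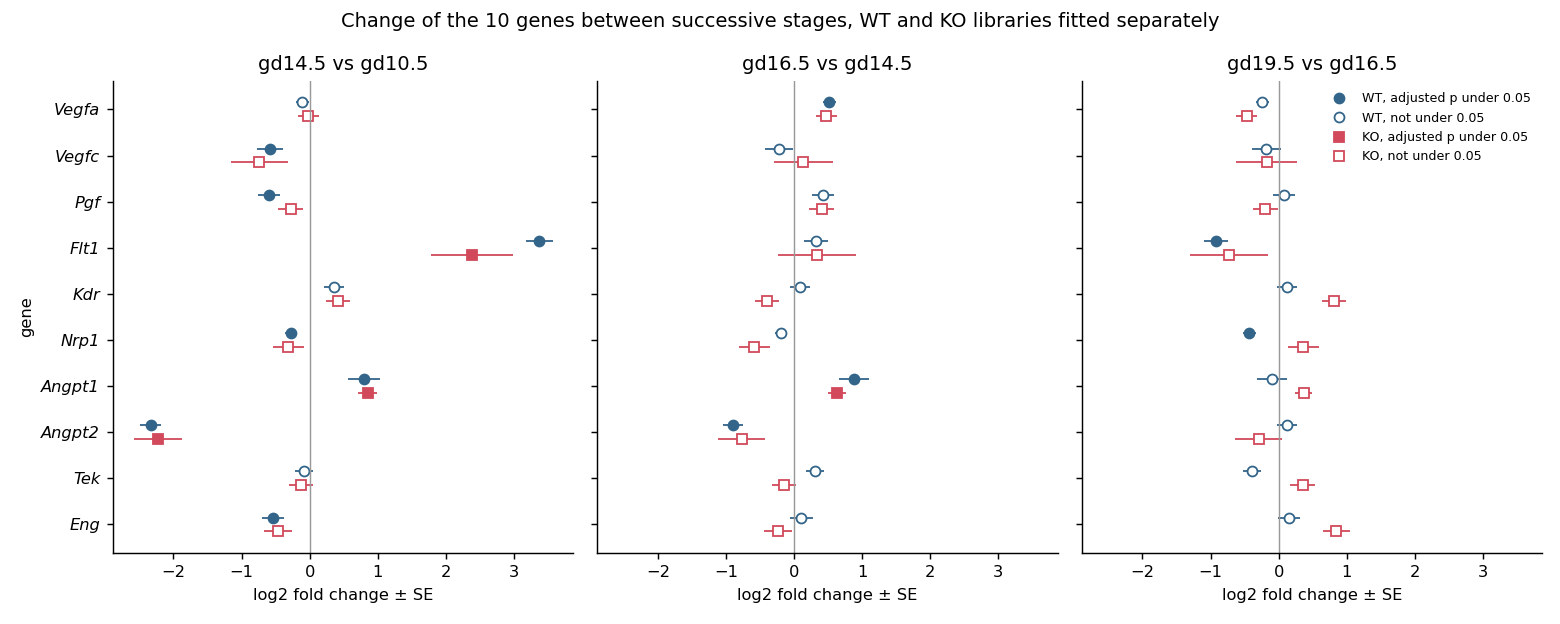
Log2 fold change ± SE of the 10 genes between successive stages, in WT (blue circles) and KO (red squares) fits of 12 libraries each; filled symbols have an adjusted p under 0.05. The first step holds both extremes, Flt1 at 3.38 and Angpt2 at -2.34 in WT, and 7, 3 and 2 WT symbols are filled in the 3 steps against 3, 1 and 0 KO symbols.

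The angiopoietins moved in opposite directions. Angpt2 encodes the ligand that loosens contacts of endothelium with mural cells in remodelling vessels. It was at 687, 724 and 493 CPM in WT gd10.5 and at 137, 118 and 120.0 CPM in WT gd14.5, and it fell (-2.34 ± 0.15, adjusted p = 1.04e-07). In KO gd10.5 it was at 780.3, 223 and 761 CPM and in KO gd14.5 at 142, 130.1 and 106 CPM, and it fell as well (-2.23 ± 0.36, adjusted p = 0.000738). Without KO gd10.5 replicate 2, the library at 223 CPM, the Angpt2 value was -2.61. The decline went on to 66.2, 64.5 and 70.5 CPM in WT gd16.5 (-0.90 ± 0.15, adjusted p = 0.00105), one of 3 of the 10 genes called in that step, with 2 higher and 1 lower against 9.91% of all genes lower. In KO gd16.5 Angpt2 was at 73.7, 71.2 and 76.3 CPM (-0.77 ± 0.34, adjusted p = 0.146), below every KO gd14.5 library. It stayed between 59.6 and 86.5 CPM at gd19.5. The summed NK cell list of 8 genes was at 596 to 858 CPM in WT gd10.5 and at 149 to 201 CPM in WT gd14.5. The decidual stroma list of 6 genes was at 6629 to 14176.5 CPM and then at 3007 to 3286 CPM. Other lists, such as spongiotrophoblast, rose over that step. The part of cell content in the Angpt2 values was not tested.

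Angpt1, the activating ligand of TIE2, was scarce but rose in both genotypes. WT libraries went from 1.89, 1.67 and 2.33 CPM at gd10.5 to 4.29, 3.12 and 2.65 CPM at gd14.5 (0.80 ± 0.23, adjusted p = 0.0105) and to 5.54, 7.74 and 5.35 CPM at gd16.5 (0.88 ± 0.22, adjusted p = 0.0128). KO libraries went from 1.91, 1.90 and 1.94 CPM to 3.08, 3.45 and 3.91 CPM (0.85 ± 0.14, adjusted p = 0.000771) and to 5.83, 5.21 and 5.06 CPM (0.63 ± 0.13, adjusted p = 0.00949). No neighbouring groups overlapped over these 2 steps in either genotype. Angpt1 was the 1 gene of the 10 called in KO from gd14.5 to gd16.5, where 9.37% of all genes were higher and 8.10% lower. In WT single libraries decided these calls for Angpt1: without WT gd14.5 replicate 1 the first step was 0.57 (adjusted p = 0.062), and the second was 0.69 without WT gd16.5 replicate 2 (adjusted p = 0.0609) and 0.74 without WT gd14.5 replicate 3 (adjusted p = 0.0578). An antisense gene, Gm17473, shares 737 exon bases with Angpt1, which is 14.2% of its length, and reached at most 0.365 CPM in any library.

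Tek encodes the receptor of both angiopoietins. Its group means lay between 36.1 and 48.4 CPM, a 1.34-fold span and the narrowest of the 10 genes. No stage step of Tek passed the edgeR test in either genotype, with adjusted p from 0.0868 to 0.636. In WT the gd16.5 libraries (43.4, 52.7 and 49.0 CPM) lay above all those of gd14.5 (39.6, 40.1 and 37.7 CPM) and gd19.5 (39.5, 36.1 and 34.5 CPM). These WT steps were 0.31 ± 0.13 and -0.39 ± 0.13, and each kept its result under 13 of 14 alternatives. Single Tek libraries ranged from 30.4 CPM in KO gd16.5 to 54.9 CPM in KO gd19.5.

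Eng was at 97.0, 132 and 82.6 CPM in WT gd10.5 and fell to 70.3, 76.6 and 66.5 CPM in WT gd14.5 (-0.54 ± 0.16, adjusted p = 0.0132). The 2 groups did not overlap. Without WT gd10.5 replicate 2, the library at 132 CPM, the Eng value was -0.34 (adjusted p = 0.0651), and without WT gd14.5 replicate 3 it was -0.49 (adjusted p = 0.0512). KO gd10.5 libraries were at 109, 64.9 and 120.2 CPM, and the KO step was -0.47 ± 0.20 (adjusted p = 0.0793), but -0.69 (adjusted p = 0.00145) for Eng without KO gd10.5 replicate 2, the library at 64.9 CPM. From gd16.5 to gd19.5 Eng in KO went from 60.6, 55.8 and 64.5 CPM to 97.3, 134 and 94.8 CPM (0.85 ± 0.20, adjusted p = 0.0649). Those groups were far apart, while the WT step was 0.16 ± 0.16 (adjusted p = 0.602).

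The ratio of Flt1 to Pgf asks how much receptor message, soluble form included, stands against its ligand within a library, and needs no scaling between libraries. It was taken from counts per kb. At gd10.5 it was 0.953, 1.20 and 1.41 in WT and 1.19, 8.14 and 0.875 in KO, so that near-equal amounts per length were present in all but KO gd10.5 replicate 2. At gd14.5 it was 14.6, 18.9 and 22.9 in WT and 15.4, 17.9 and 23.9 in KO. The mean log2 ratio was 3.59 higher at gd14.5, with every gd14.5 library above every gd10.5 library (exact permutation within genotype, two-sided p = 0.005, the smallest this design allows, adjusted p = 0.0112 over 9 steps), and 4.09 higher for Flt1 without KO gd10.5 replicate 2. From gd14.5 to gd16.5 it did not change detectably (-0.08, exact permutation p = 0.7). WT gd19.5 libraries held 9.01, 7.83 and 9.46 and KO gd19.5 libraries 11.8, 16.1 and 11.2. The log2 ratio was lower than at gd16.5 by -0.73 (exact permutation p = 0.01, adjusted p = 0.018).

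The ratio of Flt1 to Vegfa followed the same course. It was 0.488, 0.517 and 0.697 in WT gd10.5, with less Flt1 than Vegfa per length, and 0.557, 3.37 and 0.313 in KO gd10.5. At gd14.5 it was 4.60, 7.62 and 7.16 in WT and 5.36, 6.06 and 8.02 in KO. The first step raised the log2 ratio by 3.21, which is 9.27-fold (exact permutation p = 0.005, adjusted p = 0.0112), and the last lowered it (-0.45, exact permutation p = 0.015, adjusted p = 0.0225). Without KO gd10.5 replicate 2 the first step of Flt1 to Vegfa was 3.71. By gd19.5 the WT libraries stood at 3.53, 3.38 and 3.55, a narrow group.

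The ratio of Angpt2 to Angpt1 fell in 2 steps. Its medians were 512 in WT gd10.5 and 554 in KO gd10.5, 53.4 and 53.1 in the gd14.5 groups, 16.9 and 19.3 in those of gd16.5, and 16.9 and 12.6 by gd19.5. The log2 ratio was lower by -2.98 and then by -1.59 in the first steps (exact permutation p = 0.005 and adjusted p = 0.0112 for each, 6 of 6 libraries), and the last step was -0.23 (exact permutation p = 0.295). The first step of Angpt2 to Angpt1 was -3.28 without KO gd10.5 replicate 2. Angpt2 remained above Angpt1 per length in all 24 libraries, by at least 11.6-fold.

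**Figure D3:**
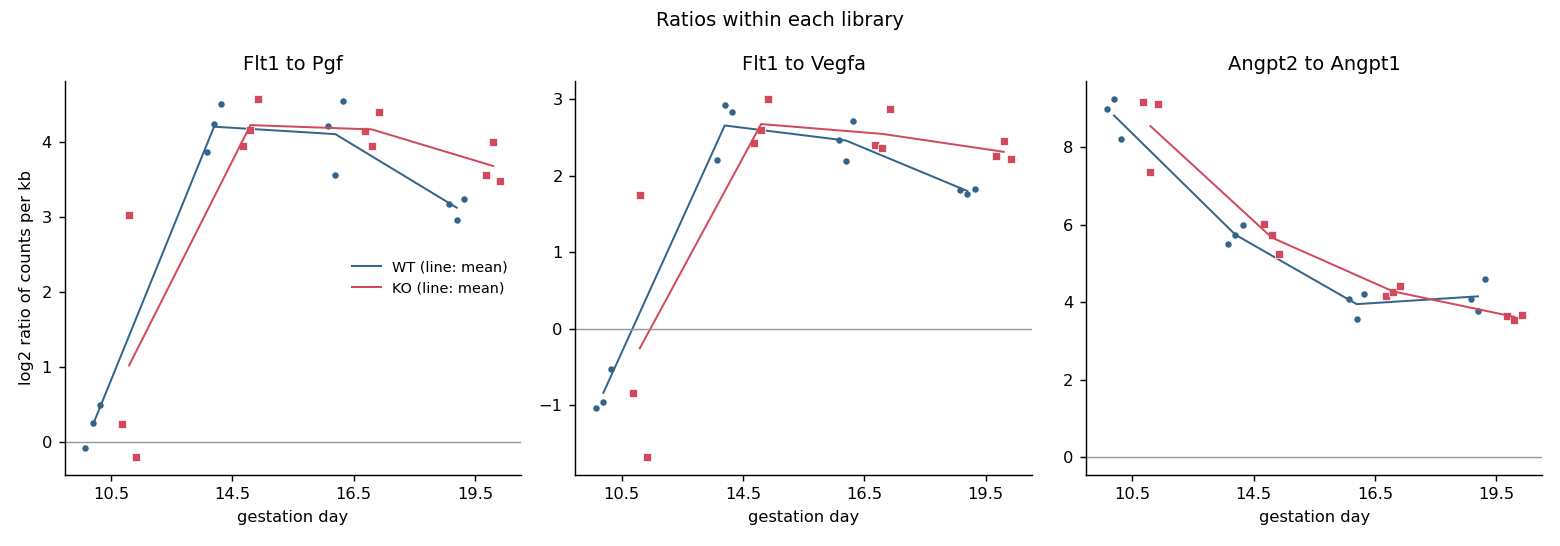
Log2 ratio of counts per kb within each library against gestation day (evenly spaced), for Flt1 to Pgf, Flt1 to Vegfa and Angpt2 to Angpt1, with WT as blue circles, KO as red squares and lines through the means. Both Flt1 ratios are near or below 0 at gd10.5 except in KO gd10.5 replicate 2, and at gd19.5 the 3 KO libraries lie above the 3 WT libraries in the first and second panels and below them in the third.

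Receptor levels were also set against 12 endothelium genes that are not among the 10, as the log2 CPM of the receptor minus the mean log2 CPM of the list. In a bulk sample, fewer cells of a type and less RNA per cell cannot be told apart. The summed CPM of the list fell from 2069 to 2238 in WT gd10.5 to 1094 to 1266 in WT gd19.5, and no member of it was at 0. Pecam1 and Cdh5 averaged 390.2 and 1295 CPM in WT gd10.5 and 227 and 491 CPM in WT gd19.5. They reached the highest library values of the list (437 and 1374 CPM), so the sum follows them most. The mean log2 CPM gives each of the 12 genes the same weight. The fall of the sum does not show that the other genes of the list fell. Relative to the list, Flt1 rose by 3.40 on the log2 scale from gd10.5 to gd14.5 (exact permutation p = 0.005, adjusted p = 0.0187 over 15 tests) and fell from gd16.5 to gd19.5 (-0.86, exact permutation p = 0.005, adjusted p = 0.0187). Leaving out KO gd10.5 replicate 2 made the first of these 3.93 for Flt1. Kdr rose in the same first step by 0.64 (adjusted p = 0.0187, exact permutation) and again in the last by 0.42 (adjusted p = 0.0214, exact permutation). The last Kdr call was lost without WT gd16.5 replicate 1 or 2 or WT gd19.5 replicate 1 or 3 (0.36 to 0.41, exact permutation, adjusted p up to 0.06).

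Eng relative to the list fell first (-0.22, adjusted p = 0.0214, exact permutation) and rose from gd16.5 to gd19.5 by 0.46 (adjusted p = 0.0214, exact permutation). The first of these turned to 0.11 for Eng when only Pecam1 and Cdh5 stood for endothelium. Tek rose by 0.17 in the first step (adjusted p = 0.0375, exact permutation), a call that was lost on leaving out any 1 of 9 of the 12 libraries (Tek 0.13 to 0.17, adjusted p up to 0.0825). The other 3 libraries were WT gd10.5 replicate 2, KO gd10.5 replicate 1 and KO gd14.5 replicate 1. Nrp1 fell in the middle step (-0.30, adjusted p = 0.0187, exact permutation), but was at -0.03 when only Pecam1 and Cdh5 stood for endothelium. The first step of Flt1 was larger in size than any step of the other 4 receptors. Some placental marker lists rose in the same step, and their part in the Flt1 step was not tested. The summed spongiotrophoblast list of 5 genes was at 1254 to 1851 CPM in WT gd10.5 and at 27609 to 29606 CPM in WT gd14.5. In KO gd10.5 replicates 1, 2 and 3 it was at 825, 12178.5 and 683 CPM, and replicate 2 was also the highest for Flt1. The labyrinth trophoblast list went from 333 to 482 CPM to 740 to 837 CPM over the WT step. The glycogen trophoblast list overlapped, at 405 to 459 CPM and then 417 to 590 CPM. The summed trophoblast giant cell list of 5 genes went from 5243 to 7253 CPM to 12519.8 to 13199 CPM over the same WT step, but its members parted, with Ctsq (5.11 on the log2 scale) and Prl3b1 (1.64) higher, Prl3d1 (-6.47) and Prl2c2 (-2.42) lower, and Hand1 not called (-0.20).

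**Figure D4:**
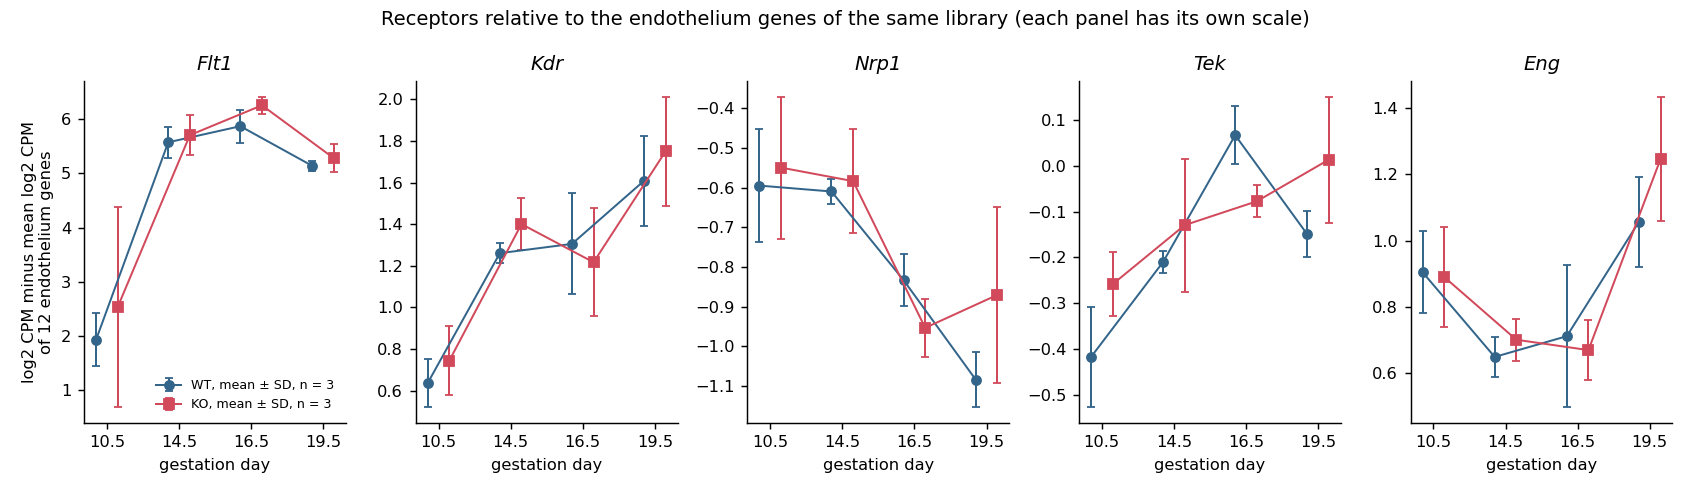
Log2 CPM of 5 receptors minus the mean log2 CPM of 12 endothelium genes of the same library, mean ± SD of 3 libraries per group, against gestation day (evenly spaced; each panel has its own scale). Flt1 goes from 1.94 in WT gd10.5 to 5.57 in WT gd14.5, while Tek stays between -0.42 and 0.07 in all group means.

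The comparison of KO with WT asks whether loss of C1qtnf6 was accompanied by a change in these genes. None of the 10 was called at any stage by edgeR with an adjusted p under 0.05 and a log2 fold change over 1 in size. Such calls by edgeR were rare altogether. They covered 0.00572% of tested genes at gd10.5, 0.0166% at gd14.5, 0.00586% in the gd16.5 libraries and 0.0230% in those of gd19.5. An unadjusted p under 0.05 was found for 0 of the 10 at both early stages, where 0.801% and 6.78% of all tested genes had one, for 3 of the 10 at gd16.5 (11.1% of all) and for 5 at gd19.5 (13.5% of all). DESeq2 called 0 of the 10 at each stage as well.

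At gd10.5 the largest KO difference was that of Flt1, at 1.06 ± 0.73 (adjusted p = 1.00), and it became -0.35 for Flt1 without KO gd10.5 replicate 2. The values of Angpt2, Tek, Nrp1 and Eng without that library were 0.29, 0.26, 0.24 and 0.15, none of them called. At gd14.5 all 10 differences lay between -0.14 and 0.09, and the KO and WT libraries of every gene overlapped. Groups did not overlap for 4.23% of all genes at gd10.5 and for 12.6% at gd14.5, and for 0 of the 10 at either stage.

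At gd16.5 the KO libraries lay below the WT libraries for Tek, Kdr and Nrp1 and above them for Angpt2, so 4 of the 10 did not overlap, against 17.6% of all genes. Tek was at 43.4, 52.7 and 49.0 CPM in WT and at 37.3, 30.4 and 40.6 CPM in KO (-0.41 ± 0.12, adjusted p = 0.421). Nrp1 was at 19.7, 17.9 and 21.1 CPM in KO (-0.39 ± 0.11, adjusted p = 0.388), and Kdr at 96.4, 86.8 and 81.2 CPM against 102, 101 and 143 CPM in WT (-0.37 ± 0.15, adjusted p = 0.433). Eng, at -0.33 ± 0.14 (adjusted p = 0.45), pointed the same way with overlapping libraries. Without WT gd16.5 replicate 3, the highest of its group for Kdr (143 CPM) and Eng (93.9 CPM), the values were -0.19 for Kdr and -0.16 for Eng. The endothelium list as a whole had a median of -0.25 at this stage, against 0.01 for all tested genes, with 0 of its 12 genes called by edgeR or DESeq2 and 3 with an unadjusted p under 0.05, and its summed level was 1252 to 1694 CPM in WT and 901 to 1326 CPM in KO; the part of endothelial content in the receptor values was not tested. The spongiotrophoblast list was higher in KO, at 38525 to 41332 CPM against 23421 to 32588 CPM, with 0 of 5 genes called by edgeR or DESeq2 and 3 with an unadjusted p under 0.05. Flt1 was at 0.11 ± 0.18 at this stage (adjusted p = 0.807, edgeR), with overlapping libraries. The smooth muscle list of 4 genes was at 94.5 to 102 CPM in KO against 125 to 147 CPM in WT, with 0 called by edgeR or DESeq2 and 2 with an unadjusted p under 0.05. The labyrinth trophoblast list was lower in KO (390 to 597 against 606 to 715 CPM). The giant cell list (24975 to 29176 against 16652 to 23790 CPM) and the glycogen trophoblast list (616 to 702 against 451 to 534 CPM) were higher. Of these lists DESeq2 called 1 of 5 giant cell genes and edgeR 0. Their part in the receptor values was not tested.

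At gd19.5 the signs turned. Tek was at 42.7, 54.9 and 40.7 CPM in KO and at 39.5, 36.1 and 34.5 CPM in WT (0.30 ± 0.11, adjusted p = 0.299), and Nrp1 was also higher in all KO libraries (0.37 ± 0.14, adjusted p = 0.319). Angpt2, at 60.0, 61.2 and 59.6 CPM in KO against 61.4, 69.5 and 86.5 CPM in WT, was lower (-0.29 ± 0.11, adjusted p = 0.319), and at -0.14 for Angpt2 without WT gd19.5 replicate 3, the library at 86.5 CPM. These 3 genes of 10 did not overlap, against 20.4% of all genes. All 3 had lain on the opposite side of WT at gd16.5 without overlap, as did 2.20% of 16782 genes tested at both stages. Eng (0.33 ± 0.13, adjusted p = 0.325) and Flt1 (0.27 ± 0.12, adjusted p = 0.369) overlapped. For Eng this held with the scaling of the stage's own fit, on which overlap was counted. On the printed CPM its lowest KO library (94.8) lay just above its highest WT library (94.7). KO gd19.5 replicate 2 was the highest of its group for Kdr, Nrp1, Tek and Eng and the lowest for Vegfa and Pgf, and without it the values were 0.16 for Tek, 0.17 for Nrp1, 0.16 for Eng and 0.06 for Kdr. The Flt1 value was 0.17 without KO gd19.5 replicate 1. The endothelium, smooth muscle and spongiotrophoblast lists had turned as well, and their part in these values was not tested. The endothelium list was at 1202 to 1457 CPM in KO and 1094 to 1266 CPM in WT, with 10 of 12 genes higher (median 0.12, against -0.01 for all tested genes). The smooth muscle list was at 144 to 226 CPM in KO against 103 to 134 CPM in WT, with 4 of 4 genes higher, and the spongiotrophoblast list at 16161 to 21962 CPM against 19478 to 25519 CPM, with 5 of 5 lower. edgeR and DESeq2 called 0 genes of these 3 lists, and an unadjusted p under 0.05 was found for 3 endothelium, 3 smooth muscle and 0 spongiotrophoblast genes. By their medians, the giant cell, glycogen trophoblast, NK cell, macrophage, fetal red cell and yolk sac endoderm lists changed side too. For giant cells the KO and WT medians were 26977 and 22048.5 CPM at gd16.5, and 22717 and 26025 CPM at gd19.5. For glycogen trophoblast they were 651 and 493 CPM, and then 444 and 483 CPM. The part of these lists was not tested. The labyrinth trophoblast, decidual stroma and lymphatic endothelium lists kept their side. Medians in KO against WT were 503 against 694 CPM at gd16.5 and 440 against 478 CPM at gd19.5 for labyrinth trophoblast. For decidual stroma they were 2429 against 2903 and 2668 against 2984 CPM. For lymphatic endothelium they were 102 against 91.6 and 131 against 121 CPM.

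**Figure D5:**
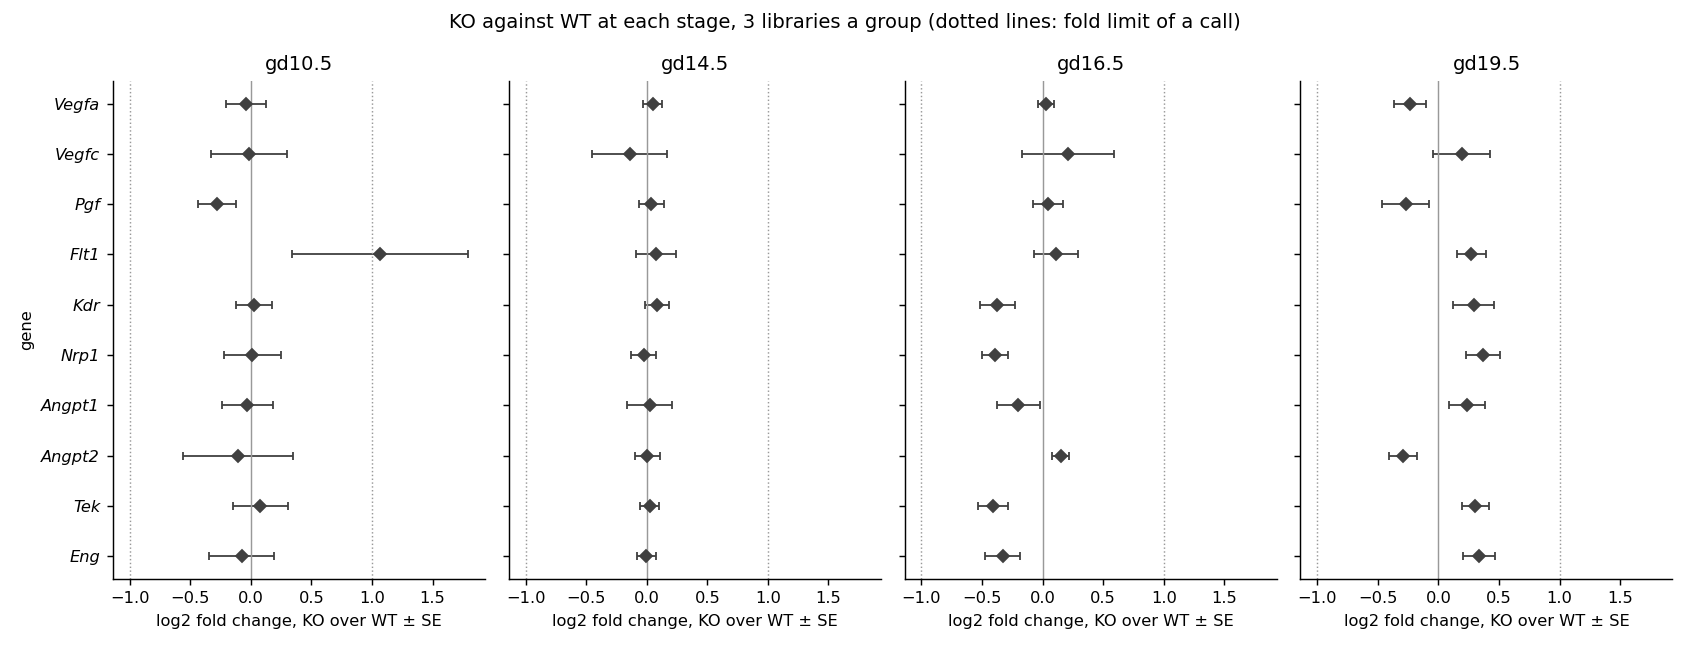
Log2 fold change of KO over WT ± SE for the 10 genes at each stage, 3 libraries a group, with dotted lines at the fold limit of 1 in either direction. Flt1 at gd10.5, 1.06 with an SE of 0.73, is the only point beyond a dotted line, and Tek, Nrp1, Kdr and Eng lie left of 0 at gd16.5 and right of it at gd19.5.

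Over all stages, with stage in the model, 0 of the 10 were called, with values from -0.11 for Pgf to 0.38 ± 0.23 for Flt1 (adjusted p = 0.857), 0 unadjusted p under 0.05, and 0.00535% of all genes higher and 0.0107% lower. Without KO gd10.5 replicate 2 the Flt1 value was 0.05 (adjusted p = 0.931). Whether the KO difference varied with stage was tested by an F test on 3 interaction terms. It called 0% of 19299 genes and 0 of the 10. Tek (unadjusted p = 0.0333, adjusted p = 0.674) and Nrp1 (unadjusted p = 0.0443, adjusted p = 0.69) came lowest in this edgeR test over 24 libraries. DESeq2 called neither, with 0.135% of all genes called. Without KO gd10.5 replicate 2 the adjusted p was 0.247 for Tek and 0.208 for Nrp1. The gd16.5 value was not tested against the gd19.5 value by itself.

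No ratio was called between genotypes. With 3 against 3 libraries the exact permutation test cannot go below p = 0.1, and 15 tests were made. At gd19.5 the log2 ratio of Flt1 to Pgf was 0.56 higher in KO, that of Flt1 to Vegfa 0.51 higher and that of Angpt2 to Angpt1 lower by -0.53, each in 3 of 3 libraries with exact permutation p = 0.1 and adjusted p = 0.5. Over all stages, where the smallest possible p is 1.25e-05, the Flt1 to Pgf ratio differed by 0.36 (exact permutation p = 0.183) and the Flt1 to Vegfa ratio by 0.30 (exact permutation p = 0.3). Without KO gd10.5 replicate 2 these were 0.11 and 0.05 for Flt1.

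Other genes of these pathways were read from fixed lists in the same fits. Of all tested genes in WT, 27.7%, 12.5% and 3.16% were called higher in the first, middle and last step, and 28.3%, 9.91% and 4.81% lower. In KO these shares were 22.1%, 9.37% and 0.574% higher, and 24.1%, 8.10% and 0.666% lower. Of 5 further VEGF family genes, 1 rose and 4 fell in WT from gd10.5 to gd14.5, and in KO 0 rose and 3 fell. Flt4, which encodes VEGFR3, was at -0.94 ± 0.15 in WT and -0.92 ± 0.25 in KO, and its ligand Vegfd at -1.12 ± 0.17 and -0.78 ± 0.24. The list had a median of -0.52 in WT, against -0.01 for all genes. Plxnd1, a semaphorin receptor of endothelium, fell from gd14.5 to gd16.5 in both genotypes (-0.44 ± 0.14 in WT and -0.72 ± 0.10 in KO), Vegfd fell in KO in that step (-1.31 ± 0.26), and Vegfb fell in WT from gd16.5 to gd19.5 (-0.55 ± 0.16).

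Of 4 further genes of the angiopoietin axis, 0 rose and 2 fell in the first WT step and 0 rose and 1 fell in KO. Angpt4, another angiopoietin, was at -1.29 ± 0.12 in WT and -1.12 ± 0.39 in KO, and Tie1, a co-receptor of TIE2, at -0.58 ± 0.14 in WT. From gd14.5 to gd16.5 Ptprb, the phosphatase that restrains TIE2, rose in WT (0.56 ± 0.11) and Svep1, an extracellular matrix ligand of TIE1, fell in KO (-0.9996 ± 0.16). Axis members thus did not share 1 direction.

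The endoglin axis of 11 tested genes had 4 higher and 4 lower in the first WT step and 4 higher and 2 lower in KO. Bmp10, a ligand of endoglin and ALK1, rose (5.26 ± 0.48 in WT and 4.29 ± 0.52 in KO) and rose again from gd14.5 to gd16.5 (1.47 ± 0.30 and 1.64 ± 0.36), while Smad9 fell (-3.87 ± 0.23 and -3.40 ± 0.63). Acvrl1, which encodes ALK1, rose from gd14.5 to gd16.5 in WT (0.90 ± 0.10), one of 6 higher genes with 0 lower. Id1 (0.68 ± 0.14 in KO) and Id3 (0.66 ± 0.12 in WT), targets of this signalling, rose from gd16.5 to gd19.5, and Id3 had risen in KO in the step before (0.98 ± 0.26). Gdf2, the other ligand of ALK1, was at or under 3 counts in 23 of 24 libraries.

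Among 10 Notch and apelin genes, which set the choice between tip and stalk cells, 4 rose and 1 fell in the first WT step, and 3 rose and 0 fell in KO. Apela rose (1.83 ± 0.22) and Esm1, a tip cell marker, fell (-1.49 ± 0.38) in WT, and Hey2 (0.65 ± 0.21) and Jag1 (0.63 ± 0.18) rose in KO. Aplnr, the apelin receptor, fell from gd14.5 to gd16.5 (-1.48 ± 0.10 in WT and -1.93 ± 0.27 in KO) and again to gd19.5 (-2.64 ± 0.12 and -1.40 ± 0.29). Its ligand genes fell at single steps in WT, Apln to gd16.5 (-0.65 ± 0.11) and Apela to gd19.5 (-1.18 ± 0.22), and Jag1 fell to gd16.5 in KO (-0.58 ± 0.18).

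Pericyte recruitment genes rose from gd10.5 to gd14.5, 4 of 5 in WT and 2 of 5 in KO with 0 lower. Pdgfb, the endothelial signal that draws pericytes, rose by 1.72 ± 0.14 in WT and 1.53 ± 0.27 in KO, and its receptor Pdgfrb by 1.21 ± 0.17 and 1.18 ± 0.20. Pdgfb rose again to gd16.5 (1.51 ± 0.13 and 1.52 ± 0.27), whereas the pericyte marker Rgs5 fell in WT (-0.99 ± 0.14). The median of the list in the first WT step was 0.89.

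The list named for angiogenesis inhibitors was mixed, with 3 of 9 higher and 3 lower in WT and 2 higher and 4 lower in KO in the first step. A place on the list does not show that a gene, such as Vash2, inhibits vessel growth, which was not tested. Adamts1, a protease that binds VEGF, fell (-1.34 ± 0.14 and -1.37 ± 0.29), Vash2 rose in WT (1.54 ± 0.14) and Pf4, a platelet chemokine, fell in KO (-1.28 ± 0.46). Vash1 and Vash2 fell from gd14.5 to gd16.5 in both genotypes (Vash1 -0.72 ± 0.13 and -0.99 ± 0.23, Vash2 -1.46 ± 0.14 and -1.60 ± 0.44), and Vash2 fell further in WT (-0.65 ± 0.15).

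Of 11 hypoxia-related genes, 3 rose and 3 fell in the first WT step and 3 rose and 0 fell in KO. Slc2a1, the glucose transporter GLUT1 (1.27 ± 0.16 and 1.01 ± 0.22), and Pdk1, a brake on pyruvate oxidation (0.99 ± 0.08 and 0.83 ± 0.14), rose in both genotypes. From gd14.5 to gd16.5 Slc2a1 (0.77 ± 0.16) and Egln3 (0.45 ± 0.15) rose in WT, while Car9 fell in KO (-0.76 ± 0.23). Vegfa, itself a hypoxia target, also rose in WT in that step, but not in the first (-0.11 ± 0.10, adjusted p = 0.351, edgeR). A link between these genes was not tested. Between gd16.5 and gd19.5 in WT, Car9 rose (1.07 ± 0.29) and Pdk1 fell (-0.32 ± 0.08). Between KO and WT, 0 genes of these 7 lists were called at any stage by edgeR or by DESeq2, with an unadjusted p under 0.05 for 0 of 54 tested genes at gd10.5, 3 of 55 at gd14.5, 14 of 54 in the gd16.5 libraries and 13 of 54 in those of gd19.5. The shares over all tested genes were 0.801%, 6.78%, 11.1% and 13.5% in the same order.

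Patterns over the 8 group means were compared by the root mean square difference of centred log2 CPM, over 15108 genes with a mean of at least 1 CPM. The nearest genes to Flt1 were Pappa2 (0.12), a protease of insulin-like growth factor binding proteins made by placenta, and Reps2 (0.16). For Angpt2 they were Nlrc3 (0.09) and Samsn1 (0.12), for Kdr Angel1 (0.08) and Mxra8 (0.08), for Tek Cactin (0.05) and Pom121 (0.06), and for Eng Plxdc2 (0.08) and Vopp1 (0.08). Nrp1 had Zbtb45 (0.06) and Alg2 (0.07) nearest, Angpt1 Zfpm1 (0.09) and Acvrl1 (0.10), Vegfa H2-DMa (0.09) and Agrn (0.09), Pgf Zfp982 (0.08) and mt-Rnr1 (0.09), and Vegfc Snrpe (0.06) and Uqcr11 (0.07). Genes with a flat course have many near neighbours, so a small difference says least for those. Within the 10, Vegfa and Pgf were closest (0.19) and Flt1 and Angpt2 farthest apart (2.59).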

How the data were processed

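Gene expression of whole MFI was measured by paired-end RNA-seq from stranded mRNA libraries, in 3 libraries for each of 8 groups of genotype and stage. The authors deposited gene read counts. Per the submitters' processing notes and methods, reads were trimmed with Trim Galore 0.6.4, aligned to GRCm38 with STAR 2.7.3a and counted with featureCounts of Subread 2.0.0 at default settings. These defaults ignore strand and drop reads that map to several places or overlap several genes, so reads from an antisense partner cannot be told apart and close gene copies may be undercounted.

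The 55401 genes of the deposited count table were analysed with edgeR 4.0.16 (R 4.3.3). Genes were kept by filterByExpr (at least 10 counts in as many libraries as the smallest group, and 15 in total), libraries were scaled by TMM, and quasi-likelihood tests were adjusted by Benjamini-Hochberg over all tested genes. KO was compared with WT in the 6 libraries of a stage (called: adjusted p under 0.05 and a log2 fold change over 1 in size, the limits of the study's methods), in an additive model with stage over 24 libraries, and in a model with genotype by stage terms. Overlap of KO and WT groups was counted on CPM with TMM factors from the 6 libraries of the stage. Successive stages were compared in 1 fit of 12 libraries per genotype (called: adjusted p under 0.05). The study used DESeq2, which is an alternative here (1.42.0). Ratios within a library used counts per kb of gene length, with 0.5 added only as an alternative, and log2 CPM used a prior count of 0.5. Their differences were tested by exact two-sided permutation within stage or genotype (Python 3.11.15), adjusted over 15 tests of KO against WT, 9 of stage steps and 15 relative to endothelium. Each kind of fit was tested on simulated counts, with KO against WT at gd16.5, the stage steps in WT, the additive model and the interaction model. The fits of the other stages and of the KO steps were not simulated.

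Library totals and the level of 3 counts, which cover counting error only, are given with the results. Named are the 10 genes in every comparison, up to 2 called genes per pathway list and comparison with the largest fold changes, and the 2 genes nearest in pattern. Members and lists were chosen with earlier results of these data known. Alternatives were other size factors, no or a stricter filter (10 counts in every library), DESeq2, another fold limit, a Y-linked expression covariate, a replicate block, all 24 libraries in 1 fit, medians, Pecam1 and Cdh5 alone, and leaving out each library.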

Additional observations from a re-analysis of the deposited data

Results flagged for a closer look

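For 3 genes every KO library lay on one side of all WT libraries at gd16.5 and on the opposite side at gd19.5, as for 2.20% of the 16782 genes tested at both stages. For Tek the log2 fold change of KO over WT was -0.41 in the gd16.5 libraries and 0.30 in those of gd19.5. The values in the same order were -0.39 and 0.37 for Nrp1, and 0.15 and -0.29 for Angpt2. None of these values passed the test at its own stage. The F test over all stages gave adjusted p = 0.674 for Tek, 0.69 for Nrp1 and 0.943 for Angpt2 (edgeR, 24 libraries), and the difference between gd16.5 and gd19.5 alone was not tested. Without KO gd19.5 replicate 2 the gd19.5 values of Tek and Nrp1 were 0.16 and 0.17, and without WT gd19.5 replicate 3 that of Angpt2 was -0.14. No group of 3 libraries is large enough for a test of single outlying libraries, so KO gd10.5 replicate 2 is described from its values only.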

How the results depend on the processing

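The counts of the 10 genes called kept within 1.5 times under other size factors, the stricter filter and the replicate block, and 0 of the 10 were called between KO and WT at any stage under every alternative, DESeq2 included. Without a filter, adjusted p at gd19.5 was 0.0154 for Kdr, 0.0134 for Nrp1, 0.0270 for Angpt2, 0.0252 for Tek and 0.00247 for Eng, with log2 fold changes under 1 in size. With a fold limit of 1 added to the stage steps, the count of the 10 fell from 7 to 2 in WT gd14.5 against gd10.5 and to 0 in WT gd16.5 against gd14.5, WT gd19.5 against gd16.5 and KO gd16.5 against gd14.5. Shares of all genes called were not counted with the added fold limit or with 1 library left out. For the other settings they follow in parentheses. Without a filter the count was 5 in WT gd16.5 against gd14.5 (12.1%), 2 in KO gd16.5 against gd14.5 (8.17%) and 2 in KO gd19.5 against gd16.5 (1.94%). DESeq2 gave 2 in both KO steps (21.4% and 6.47%), and the Y-linked covariate gave 2 in KO gd16.5 against gd14.5 (13%). With all 24 libraries in 1 fit the counts were 0 in WT gd19.5 against gd16.5 (4.64%), 3 in KO gd16.5 against gd14.5 (23.6%) and 3 in KO gd19.5 against gd16.5 (5.98%). DESeq2 gave no adjusted p for Flt1 in any of the 3 KO steps. Leaving out 1 library gave 0 to 2 in WT gd19.5 against gd16.5, with 0 without WT gd19.5 replicate 3 and 1 without WT gd16.5 replicate 3 or WT gd19.5 replicate 2, and 3 to 5 in KO gd14.5 against gd10.5. Where a count moved, the cause was not tested. A fold limit on the interaction was not run.

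Medians in place of means put the KO difference of the log2 ratio of Flt1 to Pgf at -0.014, -0.081 and -0.058 in the first, second and the third of the stages, that of Flt1 to Vegfa at -0.24 in the second and -0.066 in the third, and that of Angpt2 to Angpt1 at 0.12 at gd10.5. The last step of Flt1 to Vegfa was then -0.40 (exact permutation, adjusted p = 0.09). Leaving out 1 library gave KO differences of Flt1 to Pgf from -0.20 to 1.41 (gd10.5), -0.15 to 0.17 (gd14.5) and -0.21 to 0.29 (gd16.5), and a middle step from -0.19 to 0.059. For Flt1 to Vegfa they ran from -0.42 to 1.29, -0.21 to 0.16 and -0.075 to 0.22 at the same stages, and for Angpt2 to Angpt1 from -0.59 to 0.32 at gd10.5, -0.25 to 0.13 at gd14.5 and -0.22 to 0.011 over all stages.

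The replicate numbers were not established as pairs: deviations of same-numbered WT and KO libraries correlated from -0.527 to 0.540 over 15110 genes, and not every library correlated best with its own number. With the replicate block the exact test of the ratio steps has fewer permutations, and no step was then below 0.05: adjusted p was 0.0703 for Flt1 to Pgf (3.59), Flt1 to Vegfa (3.21) and Angpt2 to Angpt1 (-2.98, -1.59), and 0.0938 for the last steps of Flt1 to Pgf (-0.73) and Flt1 to Vegfa (-0.45). The block changed no count of the 10 genes called.

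Relative to Pecam1 and Cdh5 alone, the first step was 0.31 for Nrp1 and 0.11 for Eng, and the middle step 0.69 for Flt1, 0.20 for Kdr, -0.029 for Nrp1, 0.43 for Tek and 0.28 for Eng. Leaving out 1 library gave first steps of 0.13 to 0.20 for Tek and -0.070 to 0.020 for Nrp1, middle steps of 0.34 to 0.53 for Flt1, -0.13 to 0.0046 for Kdr, 0.13 to 0.20 for Tek and -0.046 to 0.047 for Eng, and last steps of 0.34 to 0.48 for Kdr and -0.15 to -0.044 for Nrp1. Depth limits chiefly Vegfc, Angpt1 and Gdf2.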
